A study of Mus musculus with 6 samples.

Results

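Zfp genes encode zinc finger proteins, and those outside the large Zfp array on distal chromosome 2 are described here across the mouse genome. Members were the genes whose GENCODE M21 symbol is Zfp followed by a digit, outside chromosome 2 175010241 to 178078476 (GRCm38), whose FPKM averaged 1 or more across all 6 libraries. Of 390 genes in the table with such a name and position, 287 were members and 103 lay below this level, 16 of them at 0 in every library. The members were chosen by their mean FPKM and not by the difference between the groups, so their levels are a description. Just above the limit were Zfp11 (1.03 FPKM), Zfp558 (1.09) and Zfp493 (1.12), and just below it Zfp458 (0.990), Zfp72 (0.945) and Zfp449 (0.881). The cells were AML12, a mouse hepatocyte line that is not tumorigenic. They were transfected by Lipofectamine RNAiMAX with an siRNA against Uhrf2 (siUhrf2, 3 libraries) or with a scrambled siRNA (siCtrl, 3 libraries), and total RNA was sequenced after 72 h. Both groups are the wild-type line and carry siRNA and transfection reagent, so untransfected cells do not enter the comparison. Whether the 3 replicates were separate cultures is not stated in the labels, and p-values thus reflect the spread between these libraries, which may be technical.

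Most Zfp genes encode tandem C2H2 fingers, each a short fold held by 2 cysteines and 2 histidines around a zinc ion, and the series of fingers reads a DNA sequence. Many also carry a KRAB box, which recruits TRIM28 (KAP1). TRIM28 brings the histone methyltransferase SETDB1, HP1 proteins and the NuRD complex, and these silence retroelements and keep methylation at imprinted genes. Most KRAB zinc finger genes arose by tandem duplication and sit in clusters of close relatives. Uhrf2, the gene knocked down, encodes a ubiquitin ligase that binds modified DNA and methylated histone H3. Other symbols beginning with Zfp name proteins with different kinds of fingers, among them the CCCH proteins of the Zfp36 family, which bind RNA.

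Uhrf2 checked the labels. Its 3 siCtrl libraries held 8899, 9058 and 9018 normalized counts and its siUhrf2 libraries 2942, 2805 and 2777, so that 31.6% of the control mean remained (log2 fold change -1.66, SE 0.034, limma adjusted p = 7.58e-11). The 6 libraries held 44.6 to 53.1 M estimated reads, and the members together took 0.749% to 0.780% of all normalized counts. The estimate divides a library's summed normalized counts by its most common low value, taken as a single read. It is not a stated sequencing depth. Mitochondrial transcripts took 6.68% to 7.03% in siCtrl and 5.50% to 5.78% in siUhrf2. This share moved with the group, and its part in the members' differences was not tested. Of 12 hepatocyte markers 8 passed the level filter, with Hnf4a at 83.4 FPKM and Trf at 911 FPKM, whereas Alb (0.611), Apoa1 (0.132), Tat (0.395) and Cps1 (0.0387) were under 1 FPKM. Of those 8, Serpina1a, Afp and Trf fell (log2 fold changes -1.18, -0.36 and -0.32), Krt8, Krt18 and Hnf4a rose (0.53, 0.49 and 0.09), and Ttr and Apob did not pass in limma. None of 5 endothelial and none of 7 fibroblast markers passed. Of 6 macrophage and leukocyte markers 3 passed, Adgre1 was at 0, and the list's summed level was 104.5 to 111.4 FPKM in siCtrl and 98.6 to 111.0 in siUhrf2. Cd14 made up most of this sum, at 99.7 FPKM in siCtrl and 99.4 in siUhrf2, and was not called (log2 fold change 0.01, limma adjusted p = 0.875). Csf1r and Cd68, at only 3.83 and 4.24 FPKM in siCtrl, fell (log2 fold changes -1.42 and -1.20, limma adjusted p = 1.53e-06 and 7.71e-05). The part of the hepatocyte and macrophage marker changes in the results was not tested.

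The members moved in both directions and mostly by small amounts. After Uhrf2 knock-down 66 rose and 81 fell at a limma adjusted p under 0.05, and 140 did not pass. Called members made up 51.2%, whereas 61.0% of all 11343 genes tested were called, 29.9% higher and 31.1% lower. The members' shares, 23.0% higher and 28.2% lower, were below that background in both directions. The groups did not overlap for 166 of 287 members, beside 66.7% of all genes. The median log2 fold change was -0.03 for the members and -0.01 for all genes, and the median called member differed 1.22-fold. Of 147 called members, 60 differed by under 1.2-fold, 11 rose by at least 1.5-fold and 4 fell by as much. In a limma test against a 1.5-fold difference, 4 members passed higher and 1 lower, Zfp808, Zfp991, Zfp934 and Zfp960 against Zfp469, where 1.21% and 1.81% of all genes passed. Zfp991 is among these 4 although it passed the level filter only through siUhrf2, where it is high. In these bulk samples, fewer cells that express a gene and less of its RNA per cell cannot be told apart.

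**Figure D1:**
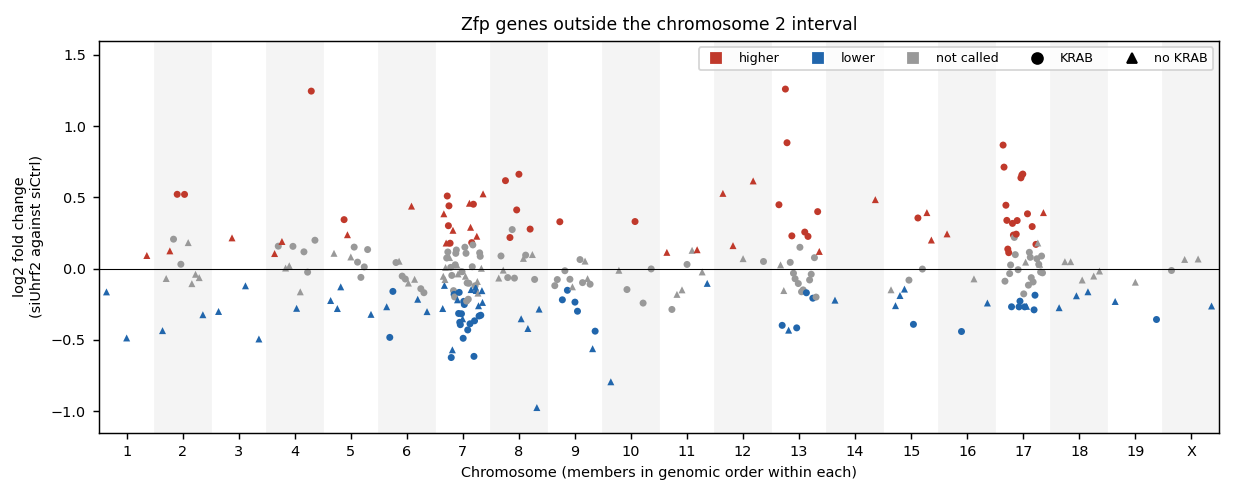
log2 fold change of each of the 287 members (siUhrf2 against siCtrl, vertical axis) in genomic order within each chromosome (horizontal axis), coloured by call and shaped by the KRAB box. Higher and lower members stand on the same chromosomes, and the highest points are Zfp808 and Zfp934 on chromosome 13 and Zfp991 on chromosome 4.

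Levels differed widely. Zfp36l1 (214 FPKM), Zfp706 (168), Zfp106 (163), Zfp207 (84.5) and Zfp664 (66.4) were the most abundant members per transcript length. The median member had 6.63 FPKM and the median gene tested 19.8 FPKM. Only 7 members exceeded 50 FPKM, and 116 were below 5 FPKM. Among the 171 members of at least 5 FPKM 57.9% were called, and 63.6% of all genes of that level were. Below 5 FPKM the shares were 41.4% of members and 48.8% of all genes.

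A KRAB box was found by profile search in the longest translated protein of 165 members and not found in 122. The 122 include Zfp469, a gene with no annotated coding transcript to search. KRAB members had a median of 12 fingers and 4.31 FPKM, the others 7 fingers and 12.3 FPKM. Of the KRAB members 41 rose and 36 fell, with a median log2 fold change of 0.00. Of those without KRAB 25 rose and 45 fell, with a median of -0.07. The 11 members at least 1.5-fold higher included 10 with a KRAB box, and the other one was Zfp839. These 10 are not all separate observations. Zfp808 with Zfp934 and Zfp960 with Zfp97 share sequence, and Zfp991 passed the level filter only through siUhrf2, where it is high. The 4 members at least 1.5-fold lower were Zfp324 and Zfp715, with KRAB, and Zfp365 and Zfp469, counted without. The classes also differ in level, fingers and shared sequence, and 58 of the 122 without KRAB but 39 of the 165 with KRAB overlap a gene on the opposite strand. Of KRAB members 24.8% were called higher and 21.8% lower, of the others 20.5% and 36.9%, and of all genes tested 29.9% and 31.1%. The difference between both classes was not tested.

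**Figure D2:**
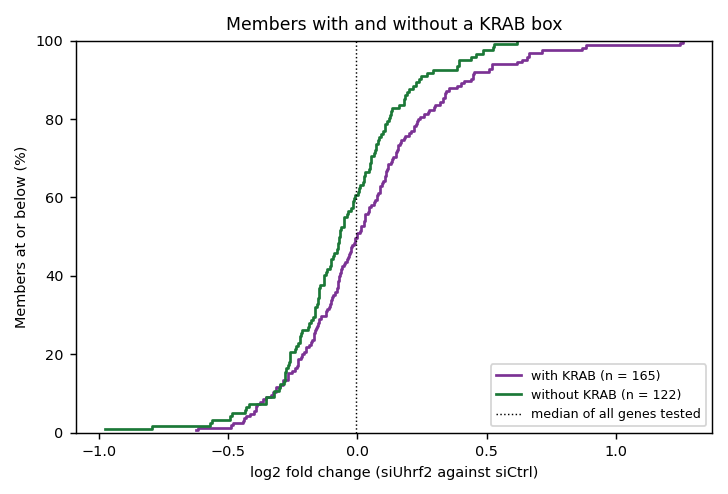
Share of members at or below each log2 fold change (siUhrf2 against siCtrl), drawn separately for the 165 members with a KRAB box and the 122 without, with the median of all genes tested as a dotted line. The KRAB curve lies to the right over most of its course and reaches the largest rises, while the lowest points of the other curve are Zfp469, which is annotated as non-coding, and Zfp365.

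The largest rise was that of Zfp808, a KRAB gene on chromosome 13 from 62129886 to 62236144 (GRCm38, plus strand). It had 327, 384 and 347 normalized counts in siCtrl and 816, 900.0 and 821 in siUhrf2. Every siUhrf2 library was far above every siCtrl library, and the mean rose from 353 ± 28.7 to 846 ± 47.2 (SD, n = 3), a log2 fold change of 1.26 (SE 0.077, limma adjusted p = 1.33e-07). Zfp934, a second KRAB gene 350 kb away on the opposite strand, had 350.1, 353 and 386 normalized counts in siCtrl and 661, 651 and 699 in siUhrf2. Its groups did not overlap either, with a log2 fold change of 0.88 (SE 0.071, limma adjusted p = 1.10e-06). Both share sequence: 28.2% of the 31-base words of Zfp808 transcripts also occur in Zfp934, and only 56.8% and 55.0% of their words occur in no other gene. Reads could therefore have been divided between them, and the sources used here do not state how the counting did so. The promoter of Zfp808, the gene with the largest rise, is shown from RefSeq (GRCm38.p6, 250 bases before to 50 after the start), with CpG dinucleotides in capitals. It spans chr13:62129640-62129939 on the plus strand and holds 8 CpGs.
Zfp808 promoter: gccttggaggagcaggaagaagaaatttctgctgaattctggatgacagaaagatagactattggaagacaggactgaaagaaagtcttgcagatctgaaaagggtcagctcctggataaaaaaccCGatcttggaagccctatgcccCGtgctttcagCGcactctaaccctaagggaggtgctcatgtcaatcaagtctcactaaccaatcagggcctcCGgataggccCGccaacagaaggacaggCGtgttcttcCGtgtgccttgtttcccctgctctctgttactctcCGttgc

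**Figure D3:**
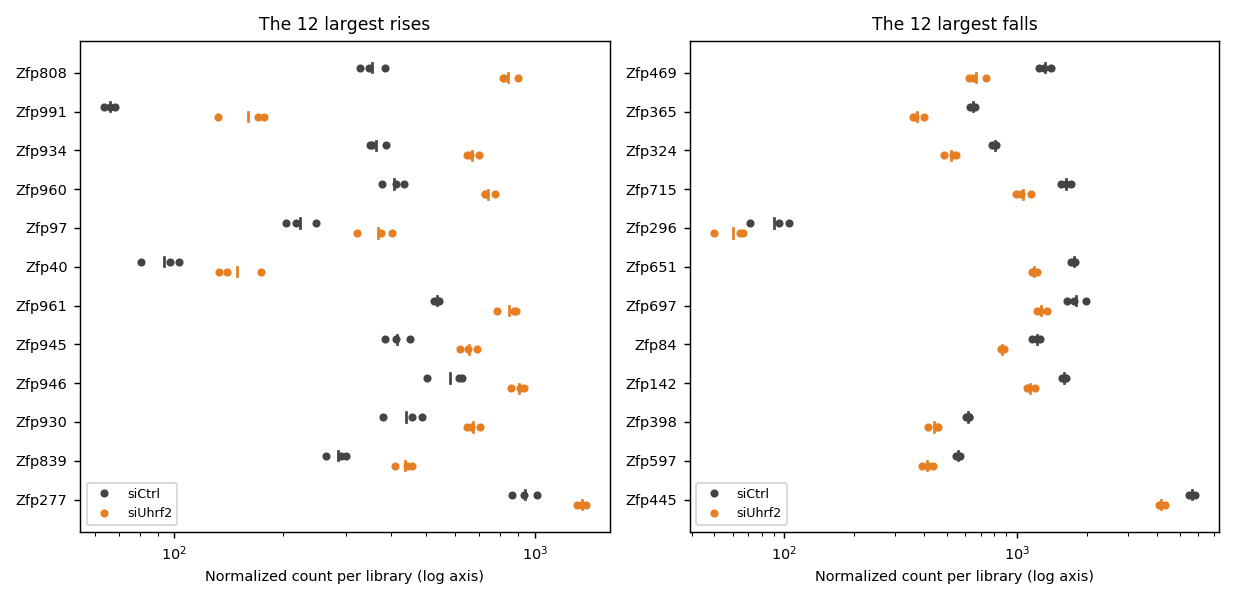
Normalized count in each library (horizontal log axis) for the 12 largest rises and the 12 largest falls among called members whose groups did not overlap, with siCtrl in grey, siUhrf2 in orange and the group mean as a tick. In every row shown the 3 siUhrf2 points lie on one side of the 3 siCtrl points, which the choice of these members required, and Zfp808 and Zfp991 are the most separated.

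Zfp991, on chromosome 4 from 147132038 to 147180579, was the second of 2 members that differed by at least 2-fold. It had 63.9, 66.4 and 68.6 normalized counts in siCtrl and 132, 171 and 177 in siUhrf2. All siUhrf2 values were above all siCtrl values, with a log2 fold change of 1.25 (SE 0.152, limma adjusted p = 2.67e-05). Its siCtrl mean was 0.892 FPKM and its siUhrf2 mean 2.13 FPKM, so it passed the level filter through the group in which it is high. Only 12.03% of its 31-base words were its own, 70.9% were shared with the annotated pseudogene Znf41-ps, and its value is uncertain for that reason. It was the 1 member with a siCtrl mean under 1 FPKM, and no member had such a mean in siUhrf2.

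Zfp960 and Zfp97 are neighbouring KRAB genes on chromosome 17 with starts 57 kb apart. Zfp960 had 413, 376 and 434 normalized counts in siCtrl and 774, 727 and 729.5 in siUhrf2. Zfp97 had 204, 218 and 248 normalized counts in siCtrl and 322, 402 and 375 in siUhrf2. In both genes all siUhrf2 libraries were above all siCtrl libraries, with log2 fold changes of 0.87 (SE 0.072, limma adjusted p = 1.43e-06) and 0.71 (SE 0.109, limma adjusted p = 0.000153). The transcripts are nearly the same, since 86.8% of the 31-base words of Zfp960 occur in Zfp97, and the data cannot tell whether both or only 1 of them rose. On chromosome 8, Zfp961 had 543, 527 and 539 normalized counts in siCtrl and 785, 889 and 878 in siUhrf2. Its sequence is mostly its own (95.0%), and its groups were well separated, with a log2 fold change of 0.66 (SE 0.065, limma adjusted p = 5.07e-06). Its neighbour Zfp617, chosen after its values were seen, also rose, from 1368 ± 67.2 to 1820 ± 38.4 normalized counts (SD, n = 3, log2 fold change 0.41, limma adjusted p = 1.87e-05), with 39.4% of its words shared with the pseudogene Gm18180.

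The remaining large rises were Zfp930 on chromosome 8, Zfp839 and Zfp277 on chromosome 12 and the chromosome 17 genes below. Zfp930, a KRAB gene, had 378, 456 and 488 normalized counts in siCtrl and 668, 706 and 647 in siUhrf2, with a log2 fold change of 0.62 (SE 0.091, limma adjusted p = 0.000114). Zfp839, which has neither a KRAB box nor a finger of the searched pattern, went from 284 ± 18.3 to 436 ± 24.9 normalized counts (SD, n = 3, log2 fold change 0.62, limma adjusted p = 6.72e-05). Zfp277, a partner of Polycomb proteins at the Cdkn2a locus in mouse fibroblasts, went from 939 ± 74.9 to 1352 ± 35.9 (SD, n = 3, log2 fold change 0.53, limma adjusted p = 1.74e-05). None of these groups overlapped, which the choice of the 12 largest rises required. The same holds for the 12 largest falls below.

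Annotated Zfp genes whose starts lay within 500 kb of the next were joined into clusters, and 24 clusters with at least 3 measured members held 160 of the 287. In them 35 members rose and 42 fell (21.9% and 26.3%), and outside them 31 rose and 39 fell (24.4% and 30.7%). Called members moved in both directions in 10 clusters, only upward in 6 and only downward in 6, and 2 clusters had no called member. A cluster with a single called member can show only 1 direction. This holds for the upward clusters of Zfp991, Zfp444 and Zfp781 and for the downward cluster of Zfp24. Zfp991 passed the level filter only through siUhrf2, where it is high. The Zfp781 cluster also held 1 member that was lower at an unadjusted p under 0.05 in limma. Clusters of fewer than 3 measured genes were left out, so Zfp808 with Zfp934 and Zfp960 with Zfp97 count as outside. By chromosome, 13 members rose and 27 fell of 72 on chromosome 7, and 17 rose and 7 fell of 44 on chromosome 17. Chromosome 13 had 8 rises and 5 falls among 26 members, chromosome 8 had 5 and 4 among 19, and chromosome 9 had 1 and 6 among 17. Among all genes tested 29.9% were called higher and 31.1% lower, the background for these counts and for the clusters below. Differences between clusters or chromosomes were not tested, because neighbours share sequence and are not independent.

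The proximal chromosome 17 cluster, from 21.0 Mb over 2591 kb, was the largest with 22 measured genes, all with KRAB. Of these 11 rose and 4 fell, with a median log2 fold change of 0.13. The largest rises lay next to each other: Zfp946, Zfp945 and Zfp40. Zfp946 had 502, 628 and 617 normalized counts in siCtrl and 862, 909 and 936 in siUhrf2. Zfp945 had 413, 385 and 450.0 normalized counts in siCtrl and 653, 621 and 692 in siUhrf2. Zfp40, a gene near the level limit, had 80.8, 97.0 and 103 normalized counts in siCtrl and 139.9, 133 and 174 in siUhrf2. All 3 genes were higher in every siUhrf2 library, with log2 fold changes of 0.64 (SE 0.084), 0.66 (SE 0.077) and 0.66 (SE 0.152) and limma adjusted p-values of 4.86e-05, 2.04e-05 and 0.00264. Between 92.7% and 98.3% of their 31-base words were their own, a larger share than in the pairs above. Their neighbours on either side differed: Zfp758 and Zfp944 fell (log2 fold changes -0.23 and -0.27), as did Zfp13 (-0.27), and Zfp213 did not pass (-0.18). Zfp13 missed the threshold without siCtrl replicate 3 (adjusted p = 0.118) and without siUhrf2 replicate 2 (0.0551) or 3 (0.1001) in limma. At the proximal end Zfp677 rose by 0.45 and Zfp54 by 0.34 on the log2 scale, and Zfp160 did not pass (-0.09). The promoters of 2 neighbouring measured genes that rose are shown with CpGs in capitals. They are Zfp946 at chr17:22423952-22424251, plus strand, with 12 CpGs, and Zfp945 at chr17:22867085-22867384, minus strand, with 7.
Zfp946 promoter: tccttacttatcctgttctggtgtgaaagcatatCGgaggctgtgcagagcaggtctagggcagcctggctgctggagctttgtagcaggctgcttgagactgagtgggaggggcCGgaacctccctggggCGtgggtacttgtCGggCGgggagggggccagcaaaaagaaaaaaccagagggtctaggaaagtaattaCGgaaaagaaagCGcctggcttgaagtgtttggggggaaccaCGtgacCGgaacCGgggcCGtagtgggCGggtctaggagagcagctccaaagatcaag
Zfp945 promoter: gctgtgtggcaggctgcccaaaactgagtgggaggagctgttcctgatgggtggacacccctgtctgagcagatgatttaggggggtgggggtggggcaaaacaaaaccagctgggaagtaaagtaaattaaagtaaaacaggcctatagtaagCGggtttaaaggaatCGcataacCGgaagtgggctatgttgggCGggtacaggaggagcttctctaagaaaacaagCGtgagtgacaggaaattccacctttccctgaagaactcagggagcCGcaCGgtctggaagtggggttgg

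**Figure D4:**
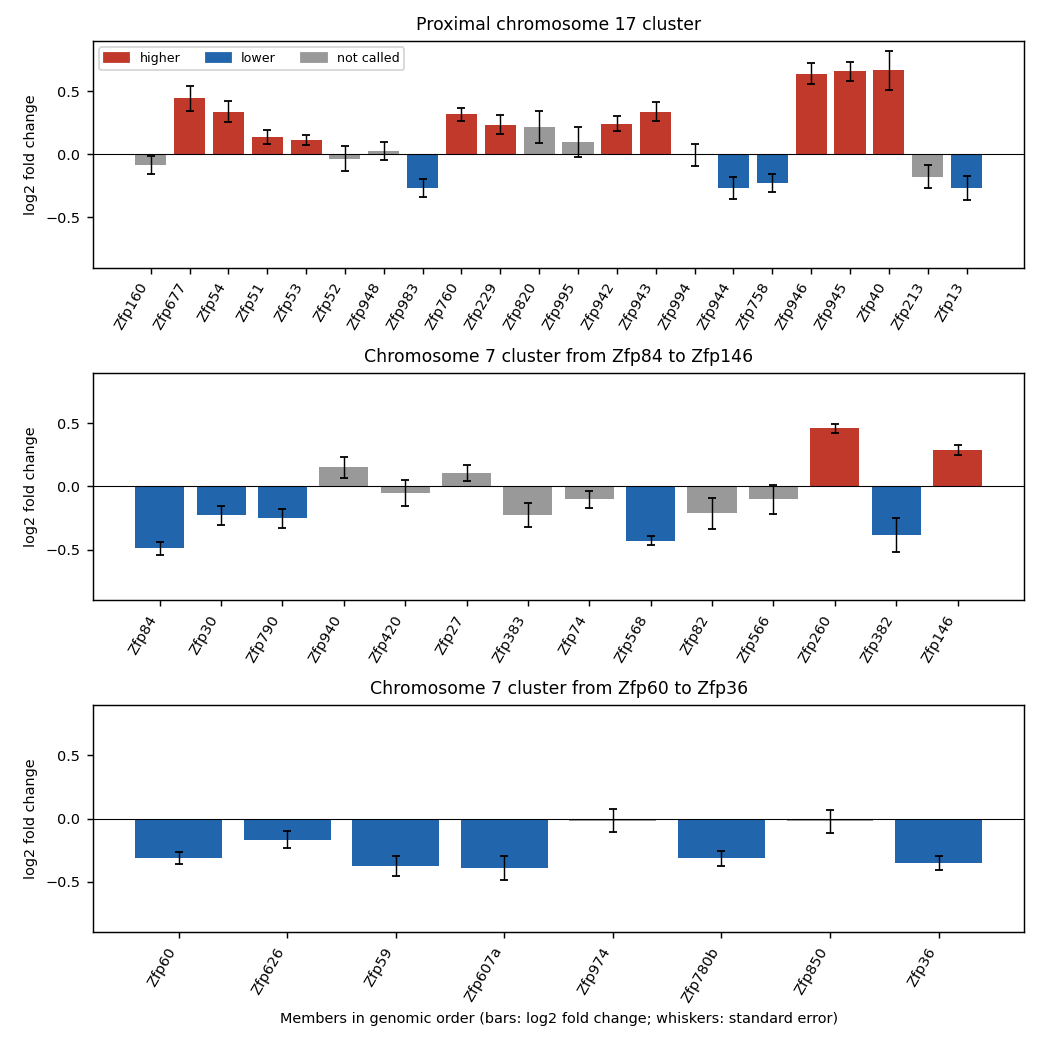
log2 fold change (bars) and its standard error (whiskers) for the measured members of 3 clusters in genomic order: proximal chromosome 17, chromosome 7 from Zfp84 to Zfp146, and chromosome 7 from Zfp60 to Zfp36. The chromosome 17 panel holds 11 rises and 4 falls, the Zfp84 panel 2 rises and 5 falls, and the Zfp60 panel 6 falls and no rise.

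The chromosome 7 cluster from Zfp84 to Zfp146 starts at 29.8 Mb and packs 15 annotated Zfp genes into 401 kb, of which 14 were measured. Zfp260 and Zfp146, which encode proteins made almost only of fingers, rose, and Zfp84, Zfp30, Zfp790, Zfp568 and Zfp382 fell. Zfp260, a regulator of gene expression in the mouse heart, had 2571, 2687 and 2769 normalized counts in siCtrl and 3722, 3717 and 3595 in siUhrf2. Its nearest measured neighbour on the distal side, Zfp382, starts 27 kb away and had 182, 153 and 150.3 normalized counts in siCtrl and 132, 109 and 129.9 in siUhrf2. The 2 neighbours moved in opposite directions, with log2 fold changes of 0.46 (SE 0.039, limma adjusted p = 1.58e-06) and -0.39 (SE 0.133, limma adjusted p = 0.0248). Zfp146 followed 39 kb further and rose from 2742 ± 86.6 to 3354 ± 109 normalized counts (SD, n = 3, log2 fold change 0.29, limma adjusted p = 6.55e-05). Zfp84, at the other end, had 1259, 1161 and 1223 normalized counts in siCtrl and 875, 862 and 858 in siUhrf2. Its siUhrf2 libraries lay close together below all siCtrl libraries, with a log2 fold change of -0.49 (SE 0.051, limma adjusted p = 8.33e-06). The promoters of 3 genes of this cluster that moved in opposite directions are shown with CpGs in capitals: Zfp84 (fell) at chr7:29768302-29768601 with 9 CpGs, Zfp260 (rose) at chr7:30094826-30095125 with 5, and Zfp382 (fell) at chr7:30121682-30121981 with 32, all on the plus strand.
Zfp84 promoter: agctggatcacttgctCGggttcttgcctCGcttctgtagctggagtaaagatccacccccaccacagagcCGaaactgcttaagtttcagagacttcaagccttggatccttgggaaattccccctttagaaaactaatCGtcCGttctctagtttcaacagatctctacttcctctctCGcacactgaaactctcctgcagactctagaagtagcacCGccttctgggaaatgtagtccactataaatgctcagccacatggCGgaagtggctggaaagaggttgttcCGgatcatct
Zfp260 promoter: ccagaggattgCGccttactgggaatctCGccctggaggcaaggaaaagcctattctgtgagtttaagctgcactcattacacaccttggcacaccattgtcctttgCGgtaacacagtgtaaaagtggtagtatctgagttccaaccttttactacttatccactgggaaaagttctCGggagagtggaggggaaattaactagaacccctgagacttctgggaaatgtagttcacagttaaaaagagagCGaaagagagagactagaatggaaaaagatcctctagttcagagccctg
Zfp382 promoter: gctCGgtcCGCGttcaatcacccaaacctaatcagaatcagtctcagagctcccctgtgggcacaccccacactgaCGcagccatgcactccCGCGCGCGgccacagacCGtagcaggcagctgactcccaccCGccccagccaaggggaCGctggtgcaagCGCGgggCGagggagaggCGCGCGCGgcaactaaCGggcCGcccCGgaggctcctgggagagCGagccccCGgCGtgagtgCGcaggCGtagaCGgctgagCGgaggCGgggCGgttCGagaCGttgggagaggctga

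On its proximal side, the chromosome 7 cluster from Zfp60 to Zfp36 begins at 27.7 Mb and had 8 measured genes. In limma none rose, also at an unadjusted p under 0.05, and 6 fell, with a median log2 fold change of -0.32. The falls were those of Zfp607a (-0.39), Zfp59 (-0.38), Zfp36 (-0.35), Zfp780b (-0.32), Zfp60 (-0.31) and Zfp626 (-0.17), while Zfp974 and Zfp850 were both at -0.02 and did not pass. Zfp36 is a CCCH gene and not a relative of its KRAB neighbours. On distal chromosome 7 from 127.2 Mb, 5 of 10 genes fell and none rose in limma (6 and 0 at an unadjusted p under 0.05), with Zfp747 and Zfp689 both at -0.33. The cluster from 42.5 Mb held Zfp715, the lowest there, and Zfp975, which rose by 0.45 on the log2 scale (limma adjusted p = 0.00277) with 53.8% of its words its own. In the cluster from 12.4 Mb Zfp606 rose by 0.44 (limma adjusted p = 6.63e-05) and Zfp324 fell.

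Other clusters were smaller or mixed. The chromosome 13 cluster from 66.7 Mb had 16 measured KRAB genes with 3 rises and 3 falls, from Zfp456 at -0.42 to Zfp87 at 0.26 on the log2 scale, and a median of 77.0% own 31-base words. The second chromosome 17 cluster, from 32.8 Mb, had 3 rises and 2 falls among 12 genes, from Zfp955a at -0.29 to Zfp871 at 0.39. On chromosome 2 at 150.1 Mb, well outside the excluded array, Zfp120 and Zfp442 both rose by 0.52 (limma adjusted p = 9.40e-05 and 0.00103), and Zfp937 between them did not pass (0.03). These 3 genes had a median of only 54.7% own 31-base words. On chromosome 8 from 69.2 Mb 2 of 5 genes rose, Zfp930 and Zfp869, and none fell in limma (3 and 0 at an unadjusted p under 0.05). On chromosome 15 the adjacent Zfp251 and Zfp7 went in opposite directions, with log2 fold changes of -0.39 and 0.36. The 2 clusters with no called member were those on chromosome 5 from 138.1 Mb and on chromosome 17 from 55.9 Mb, with 3 measured genes each (1 and 0 of them at an unadjusted p under 0.05 in limma). In the first, Zfp113 passed higher without siCtrl replicate 1 (adjusted p = 0.0303 in limma) and with upper-quartile scaling (0.0423), and Zfp68 passed lower without both libraries of replicate 1 (0.0479).

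The largest fall was that of Zfp469, whose human counterpart is mutated in brittle cornea syndrome. It had 1247, 1300.5 and 1398 normalized counts in siCtrl and 649.5, 735 and 624 in siUhrf2. Its siUhrf2 libraries were all far below the siCtrl libraries, with a log2 fold change of -0.97 (SE 0.070, limma adjusted p = 4.72e-07). GENCODE M21 lists it as a non-coding gene on chromosome 8 from 122269569 to 122272650, and it was the 1 member not annotated as protein-coding. Zfp365, whose human counterpart is tied to the stability of fragile sites, had 629.6, 645 and 662 normalized counts in siCtrl and 356, 364 and 397 in siUhrf2. All siUhrf2 libraries were lower, with a log2 fold change of -0.79 (SE 0.070, limma adjusted p = 2.32e-06). The KRAB genes Zfp324 and Zfp715 on chromosome 7 went from 802 ± 17.2 to 521 ± 31.8 and from 1626 ± 80.6 to 1063 ± 83.8 normalized counts (SD, n = 3), log2 fold changes of -0.62 in both. Their limma adjusted p-values were 7.85e-06 and 6.16e-06.

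Among the other large falls, Zfp651, a BTB protein also named Zbtb47, fell by 0.56 on the log2 scale (limma adjusted p = 8.93e-07). Zfp142, with 41 matches to the finger pattern the most of any member, fell by 0.49 (limma adjusted p = 5.03e-06). Zfp697 fell by 0.49, Zfp398 by 0.48 and Zfp597 by 0.44, with limma adjusted p-values of 9.10e-05, 8.11e-05 and 0.000198. Zfp651, Zfp142, Zfp697 and Zfp597 overlap another gene on the opposite strand, and no source used here states whether counting used strand. Reads from exon sequence that both genes cover might therefore not be told apart. Overlap was taken between whole gene spans, and overlap of exons was not examined. Zfp296, a partner of pluripotency factors in mouse stem cells, had 71.1, 105 and 94.7 normalized counts in siCtrl and 64.4, 49.8 and 66.4 in siUhrf2. Its siUhrf2 libraries were all lower by a small margin, with a log2 fold change of -0.57 (SE 0.195, limma adjusted p = 0.0240). It overlaps Gemin7 on the opposite strand. Without siCtrl replicate 2 or 3 or siUhrf2 replicate 2 its adjusted p in limma was 0.103, 0.0781 and 0.0917.

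Members known to repress retroelements or to protect imprints went both ways. Of 7 genes listed, 5 were measured, 3 fell, 1 rose and 1 did not pass. Among all genes tested 31.1% fell and 29.9% rose, the background for each role list here and below. Zfp445, which acts with Zfp57 in imprint maintenance in mouse, had 5483, 5634 and 5846 normalized counts in siCtrl and 4324, 4080.5 and 4112 in siUhrf2. Every siUhrf2 library was lower, with a log2 fold change of -0.44 (SE 0.037, limma adjusted p = 1.64e-06). Zfp568, which represses the placental Igf2 transcript in mouse, had 3661, 3643 and 3767 normalized counts in siCtrl and 2701, 2702 and 2815 in siUhrf2, again with no overlap, with a log2 fold change of -0.43 (SE 0.036, limma adjusted p = 1.45e-06). Zfp809, which silences murine leukaemia virus sequences, fell by 0.23 on the log2 scale (limma adjusted p = 0.00481). Zfp57, a KRAB protein that binds methylated imprinted DNA, had 2132, 2029 and 1920.0 normalized counts in siCtrl and 2043, 2083 and 2079 in siUhrf2, and its groups overlapped (log2 fold change 0.03, SE 0.045, limma adjusted p = 0.581). Zfp932, a repressor of endogenous retroviruses, rose from 370.0 ± 19.2 to 469.9 ± 20.7 normalized counts (SD, n = 3, log2 fold change 0.34, limma adjusted p = 0.00199), but shares 40.6% of its 31-base words with Gm15446. Zfp708 and Zfp819 were at 0.147 and 0.0192 FPKM and were not tested.

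The proteins of the Zfp36 family bind AU-rich mRNAs and speed their decay. Its 3 measured members all passed the test and did not move together, and the fourth, Zfp36l3, was at 0.0299 FPKM and not tested. Zfp36 (tristetraprolin) had 846, 882 and 903 normalized counts in siCtrl and 691, 689 and 680.2 in siUhrf2. It was lower in every siUhrf2 library, with a log2 fold change of -0.35 (SE 0.055, limma adjusted p = 0.000179). Zfp36l2 had 5184, 4605 and 4298 normalized counts in siCtrl and 5668, 6553 and 6266 in siUhrf2. It was higher in every siUhrf2 library, with a log2 fold change of 0.39 (SE 0.079, limma adjusted p = 0.00360). Zfp36l1, the most abundant member, rose from 203 to 225 FPKM (log2 fold change 0.16, SE 0.032, limma adjusted p = 0.000927), with 53.2% of its 31-base words shared with the overlapping gene Gm26669.

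Genes with roles in translation, RNA and protein modification moved in both directions. Of 4 genes of translation and ribosome quality control, Zfp706 fell from 184 to 152 FPKM (log2 fold change -0.26, SE 0.035, limma adjusted p = 6.06e-05). Zfp706 is known in mouse embryonic stem cells as a factor that promotes exit from self-renewal. Zfp598, which marks collided ribosomes with ubiquitin, was at 0.05 (limma adjusted p = 0.303), and the ribosome biogenesis factors Zfp622 and Zfp593 were at -0.15 and -0.16 (limma adjusted p = 0.0970 and 0.0743), which did not pass. Of 6 genes of RNA, splicing and mitosis, Zfp207 (BuGZ, a spindle protein) and the RNA-binding Zfp106 both rose by 0.13 on the log2 scale, and Zfp326, which couples transcription to splicing, fell by 0.28. Zfp638 (-0.10), Zfp346 (-0.15) and Zfp830 (-0.02) did not pass. Some of these calls changed when a single library was left out, which also leaves fewer libraries in the fit. Zfp106 missed the threshold without siCtrl replicate 2 (adjusted p = 0.0589 in limma), and Zfp638 passed lower without siCtrl replicate 2 (0.00928) or siUhrf2 replicate 1 (0.0281). Zfp346 and Zfp622 passed lower without siCtrl replicate 3 (adjusted p = 0.0279 and 0.0192 in limma), and Zfp593 without siUhrf2 replicate 2 (0.0459). The ubiquitin ligase Zfp91 went from 62.8 to 53.0 FPKM (log2 fold change -0.23, limma adjusted p = 7.69e-05), and the SUMO ligase Zfp451 fell by 0.16 (limma adjusted p = 0.00497).

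Of 9 measured members listed as chromatin-bound partners of corepressors, 4 fell and 1 rose, where 31.1% of all genes tested fell and 29.9% rose. The list also holds Zfp410, known as an activator of the NuRD gene Chd4, and Zfp609, known to bind Integrator and the cohesin loader. Zfp827, which brings NuRD to telomeres, fell by 0.35 on the log2 scale (limma adjusted p = 0.000123). Zfp592 and Zfp687, which bind ZMYND8, were at -0.15 and -0.12, and Zfp644, a partner of the histone methyltransferases EHMT1 and EHMT2, at -0.13. Zfp462, a large protein that also binds those methyltransferases, rose by 0.19 (limma adjusted p = 0.00184). Zfp217, Zfp410, Zfp518a and Zfp609 did not pass, and Zfp532 and Zfp518b were below the filter. The calls of Zfp687 and Zfp644 did not hold when a single library was left out: without siCtrl replicate 2 or 3 or siUhrf2 replicate 2 or 3 for Zfp687 (adjusted p up to 0.157 in limma), and without siCtrl replicate 1 or siUhrf2 replicate 2 or 3 for Zfp644 (up to 0.0863).

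Of 15 promoter and tissue transcription factors 10 were measured, 4 rose and none fell in limma, and 1 was lower at an unadjusted p under 0.05. Shares among all genes tested were 29.9% higher and 31.1% lower. Zfp395 had 833, 1107 and 986 normalized counts in siCtrl and 1228, 1441 and 1407 in siUhrf2. Its siUhrf2 libraries were above all siCtrl libraries, with a log2 fold change of 0.48 (SE 0.105, limma adjusted p = 0.00421). Zfp143, which binds many promoters and chromatin loop anchors, rose by 0.23 (limma adjusted p = 0.00113), Zfp385a, a p53 cofactor, by 0.20 (0.0120) and Zfp281 by 0.09 (0.0314 in limma). Zfp385a missed the threshold without siCtrl replicate 3 or siUhrf2 replicate 3 (adjusted p = 0.0543 and 0.0545 in limma). Zfp281 did so without siCtrl replicate 2 or 3 or siUhrf2 replicate 1 or 3 (adjusted p up to 0.101). Zfp148, Zfp335, Zfp354a, Zfp516, Zfp69 and Zfp703 did not pass. Zfp335 passed lower without siCtrl replicate 3 (adjusted p = 0.0463 in limma) or siUhrf2 replicate 1 (0.0312), and Zfp516 without both libraries of replicate 1 (0.0143). Of the 5 listed genes below the level filter, Zfp503 fell in a limma fit with no such filter, from 183 ± 32.3 to 96.6 ± 11.6 normalized counts (SD, n = 3, log2 fold change -0.91, adjusted p = 2.15e-05), with no overlap of the groups. The others, Zfp423, Zfp521, Zfp467 and Zfp750, had no call. Zfp664, the fifth most abundant member, went from 6423 ± 147 to 7577 ± 117 normalized counts (SD, n = 3, log2 fold change 0.24, limma adjusted p = 5.45e-05).

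Genes whose products work with KRAB proteins are set beside the members. Of 11 genes of TRIM28 and H3K9 methylation 4 rose and 1 fell. Trim28 itself was at 542 FPKM in siCtrl and 530 FPKM in siUhrf2 (log2 fold change -0.02, SE 0.034, limma adjusted p = 0.640), and Setdb1 was at -0.03 (limma adjusted p = 0.531). The HP1 genes Cbx1, Cbx3 and Cbx5 rose by 0.20, 0.18 and 0.10 on the log2 scale, Ehmt1 rose by 0.21 and Ehmt2 fell by 0.14. Of 13 NuRD genes 7 rose and 1 fell, led by Mta3 (log2 fold change 0.44) and Hdac2 (0.35), with Mta2 at -0.13. The 7 HUSH and MORC genes had 1 rise, Pphln1, and 1 fall, Fam208a. Of 7 genes of maintenance methylation, Usp7 rose by 0.14 (limma adjusted p = 0.00198) and Uhrf2 fell. Uhrf1 and Dnmt1 did not pass, at 0.03 and 0.07 (limma adjusted p = 0.686 and 0.0658). Background shares for such counts are 29.9% higher and 31.1% lower.

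Shared sequence moved with the direction of the calls. Of 231 members with at least 80% own 31-base words, 20.3% rose and 30.3% fell, and of 56 members below that, 33.9% rose and 19.6% fell. For all genes tested these shares were 29.9% and 31.1%. Across the 287 members the share of own words and the log2 fold change had a Pearson r of -0.23 and a Spearman rho of -0.11. Genes are not independent replicates, and all values come from the same 6 libraries, so no p is given. With the length of the protein the values were -0.05 and -0.10, with the number of fingers 0.05 and 0.06, and with the logarithm of the mean FPKM -0.03 for both. Among the 119 KRAB members with at least 80% own words 26 rose and 27 fell. The part of read assignment in these counts was not tested.

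**Figure D5:**
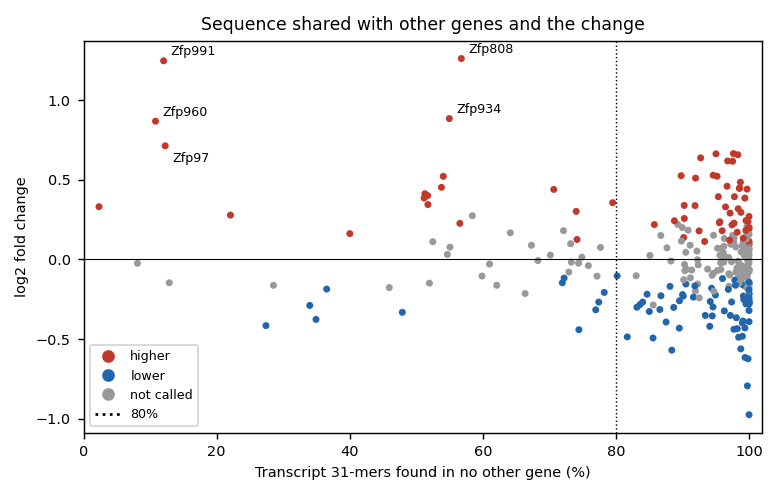
Share of each member's 31-base transcript words that occur in no other gene (horizontal axis, %) against its log2 fold change (vertical axis), coloured by call, with a dotted line at 80%. The named rises Zfp991, Zfp960, Zfp97, Zfp808 and Zfp934 lie left of the line, while 6 of the 11 rises of at least 1.5-fold, among them Zfp961, Zfp945, Zfp946 and Zfp40, lie right of it, as do the largest falls.

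Promoters of 237 of the 287 members matched the RefSeq table (GRCm38.p6, 300 bases). Their RefSeq starts lay from 0 bases (Zfp84) to 98112 bases (Zfp993) from the M21 gene start, so some windows lie far from it. For the printed promoters the distance was 299 bases in Zfp260 and at most 20 (Zfp946) in the others. Members had a median of 15 CpGs there and all 8831 tested genes with a promoter 22. KRAB members had a median of 11 and the others 21. Called members differed less, with medians of 13.5 for those that rose, 16.5 for those that fell and 14 for those not called. Both strands were searched for 4 motifs by letters: TGCGCA, the core of the NRF1 site, TGACGTCA, the cyclic AMP response element, CACGTG, the E-box, and CCGGAAG, an ETS site. The ETS letters were in 21.1% of member promoters and in 20.4% of those of all genes tested, the E-box in 8.02% and 10.7%, the NRF1 core in 9.28% and 15.4%, and the cyclic AMP element in 3.38% and 3.51%. Of the promoters printed above, Zfp945 held the ETS letters, Zfp946 the E-box and Zfp382 the NRF1 core. A match is a description and not evidence of binding.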

How the data were processed

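Total RNA of 6 AML12 libraries, 3 siCtrl and 3 siUhrf2, was grouped by sample title. The authors deposited 1 table of a normalized count, a signal that is not whole, and of FPKM, per the file headers. Tools and build named in the submitters' processing notes are kallisto 0.44.0, edgeR and GRCm38.p6, with no role, annotation or strand setting. All 6 value columns of each kind were used and 0 left out. Of 35709 identifiers, 35651 had a GENCODE M21 symbol, and 58 had none. Coordinates are 1-based.

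Because the table held no counts, limma 3.58.1 (R 4.3.3, statmod 1.5.0; mean-variance trend, robust variances) was fitted to log2(normalized count + 1) of the 11343 genes averaging 1 FPKM or more, with no covariate. A call needed p under 0.05 after Benjamini-Hochberg adjustment over all of them. Fold changes are on this log2 scale, where the added 1 shrinks the change of low genes. With 3 libraries a group, an error covers only their spread. The fit was also run on simulated data in which few genes changed and all genes had the same dispersion. Most genes were called in the real data, so that run cannot tell how reliable these calls are. edgeR, foreseen for whole counts, was not run.

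M21 transcripts were split into 31-base words (31-mers) to find sequence shared between genes. A word and its reverse complement were counted as the same, so sequence shared with an antisense transcript also counts as shared. Coding transcripts of Zfp genes were translated (1141, of which 0 had an internal stop), and only the longest protein of each gene was kept. It was searched for fingers by pattern and for KRAB boxes with a profile of 185 proteins at an E-value under 1e-05 (pyhmmer 0.12.3). A box present only in a shorter protein would be missed. Promoters came from RefSeq.

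Genes were named by rule: the 12 largest called rises and falls without overlap of the groups, measured members of role lists, the highest and lowest member of each cluster, the 5 most abundant members, the 3 on either side of the level limit, and Uhrf2. Cluster neighbours and partner genes named beside them were chosen after their values were seen. Members and lists were chosen with earlier results of these data known. Same-numbered libraries of both groups had correlated deviations of 0.18, 0.24 and 0.07, so the numbers were not taken to pair them.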

Additional observations from a re-analysis of the deposited data

How the results depend on the processing

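The counts of members that rose (66) and fell (81), of all called (147) and the median log2 fold change (-0.032) were recomputed under other scalings, pseudocounts, filters, units and tests. Without 1 library, 56 to 61 rose, 65 to 81 fell, 124 to 141 were called, and the median was -0.052 (without siUhrf2 replicate 1) to -0.018 (without siUhrf2 replicate 2). Quantile normalization moved the median to -0.0063 and gave 72 rises and 71 falls, and upper-quartile scaling 72 and 74, against 66 and 81. With a mean of at least 5 FPKM, which keeps 171 members, 43 rose and the median was -0.052. Against a 1.5-fold difference 4 rose and 1 fell, 5 in all. Leaving out members under 80% own 31-mers gave a median of -0.053. Leaving out the 97 with an opposite-strand overlap left 48 falls of 92 calls and a median of 0.00048. By construction the level and overlap filters leave fewer members, and for the other values the cause was not tested. Other settings kept the counts within 1.5 times, among them leaving out both libraries of replicate 1, chosen after seeing the data (58 rose, 88 fell). Scalings moved the median of all genes by under 0.02. Gaps of 200 kb and 1000 kb gave 21 and 24 clusters.

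A fit with the replicate number as a block called 67 higher and 84 lower. Each siUhrf2 library correlated best with the siCtrl library of its own number, a hint from the data and not the design, but 1 of 3 correlations was under 0.1.

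Of 107 named members 71 were called, and 62 of these kept the call in every refit, the test against 1.5-fold aside. Zfp296, Zfp106, Zfp687, Zfp644, Zfp281, Zfp385a, Zfp444, Zfp41 and Zfp13 lost it in some. Of those not called, 9 gained a call in some refit: Zfp622, Zfp593, Zfp638, Zfp346, Zfp335, Zfp516, Zfp113, Zfp68 and Zfp873. With the replicate block these were Zfp638 (adjusted p = 0.0213 in limma) and Zfp335 (0.0422), both lower. Sign changes (32) were all of members not called. Without both libraries of replicate 1 they were Zfp830 (0.0042), Zfp703 (0.094), Zfp937 (-0.055), Zfp993 (0.17) and Zfp956 (-0.0068). By quantile normalization they were Zfp703 (0.013), Zfp993 (0.060), Zfp974 (0.0063) and Zfp119b (0.011). Upper-quartile scaling gave Zfp703 (0.0081) and Zfp974 (0.0012), library totals Zfp787 (-0.0050) and FPKM Zfp787 (-0.0048). Without 1 library the ranges were -0.068 to 0.018 for Zfp830, -0.0080 to 0.067 for Zfp57, -0.058 to 0.067 for Zfp703, -0.057 to 0.37 for Zfp69, -0.015 to 0.081 for Zfp937, -0.16 to 0.083 for Zfp993, -0.021 to 0.093 for Zfp956, -0.011 to 0.021 for Zfp787, -0.096 to 0.044 for Zfp974 and -0.096 to 0.037 for Zfp119b. Weakly expressed members have larger errors (median SE 0.094 under 5 FPKM and 0.055 above), which limits what small differences they can show.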

Other observations

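Zfp genes below the level limit had calls in both directions. Of the 103 below 1 FPKM, 87 were above 0 in some library. In a limma fit with no filter on low values, over 24928 genes of which 14.0% were called higher and 15.8% lower, 6 of them rose and 2 fell. Zfp72 and Zfp458, on chromosome 13 just below the limit, were higher in every siUhrf2 library. Zfp72 went from 104 ± 3.81 to 164 ± 9.62 normalized counts (SD, n = 3, log2 fold change 0.66, limma adjusted p = 0.000434), and Zfp458 from 130 ± 12 to 168 ± 14.2 (SD, n = 3, log2 fold change 0.37, limma adjusted p = 0.0395). Both had a siUhrf2 mean above 1 FPKM. The most significant of the 8 was a fall, that of Zfp503 on chromosome 14, with 149.6, 214 and 186 normalized counts in siCtrl and 92.8, 87.4 and 109.7 in siUhrf2 (limma adjusted p = 2.15e-05). The other rises were of genes with few reads. Zfp352 had 0, 5.53 and 3.71 normalized counts in siCtrl and 20.7, 26.4 and 22.1 in siUhrf2 (limma adjusted p = 0.000309), and Zfp2 went from 7.73 ± 1.10 to 26.3 ± 6.51 (SD, n = 3, limma adjusted p = 0.00067). Zfp977 went from 9.22 ± 1.87 to 22.0 ± 10.3 and Zfp982 from 15.7 ± 6.28 to 28.7 ± 3.47 (SD, n = 3, limma adjusted p = 0.0332 and 0.0384). The second fall was that of Zfp534, with 0.666, 2.73 and 2.46 normalized counts in siCtrl and 0 in every siUhrf2 library (limma adjusted p = 0.0431).

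Related zinc finger families are given side by side with the members, and differences between families were not tested. Of all genes tested, 29.9% were called higher and 31.1% lower. Families were taken by symbol, so Zfp651 (Zbtb47) was counted with the members. Of 38 measured Zbtb genes, which carry a BTB domain, 4 rose and 20 fell, with a median log2 fold change of -0.15. Of 16 measured Zscan and Zkscan genes, which carry a SCAN domain, 6 rose and 4 fell, with a median of -0.01. Of 9 measured Zfp genes inside the excluded chromosome 2 interval, 7 rose and none fell in limma, with a median of 0.47, and their median share of own 31-base words was 9.45%.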
